A study of Mus musculus with 6 samples.

Results

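Transcripts of 10 trophoblast regulators and markers were followed in primordial germ cell-like cells (PGCLCs) of the mouse, cultured counterparts of the founders of the germ line, with and without induced loss of Ezh2. The genes were chosen by symbol as known actors of the trophoblast, the outer lineage of the blastocyst that builds the placenta: the regulators Cdx2, Elf5, Hand1, Gata2, Gata3, Tead4 and Tfap2a and the placental genes Plet1, Plac1 and Esx1. The choice was made with earlier results of these data known, so counts of members beside all genes describe the list only. All 10 matched a gene ID among the 37991 of the count table, and all 10 were abundant enough to be tested. Embryonic stem cells of C57BL/6 background, with both Ezh2 alleles floxed and a tamoxifen-inducible Cre (CreERT2), passed through 2 days of epiblast-like culture and were aggregated with BMP2, SCF, LIF and EGF. The 3 Ctrl libraries (Ezh2f/f, CreERT2) received ethanol, and the 3 Ezh2 KO libraries (Ezh2-/-, CreERT2) received 4-hydroxytamoxifen in ethanol. Both groups carried the floxed line and the Cre, and aggregates were dissociated and sorted on day 4. The sources used here give neither the gate of the sort, nor the number of stem cell clones, nor the origin of the replicates, so the p-values cover the spread of these 6 libraries, which may be technical. The design asks how expression in early germ cells differs without Ezh2, the methyltransferase of polycomb repressive complex 2 (PRC2), which deposits the repressive histone mark H3K27me3.

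In the blastocyst the DNA-binding factor Tead4, with its co-activators Yap1 and Wwtr1, switches on Cdx2 and Gata3 in outer cells. Cdx2, Elf5, Eomes and Tfap2c then maintain trophoblast stem cells, and Hand1, Gcm1 and Ascl2 direct them into giant cells, labyrinth and spongiotrophoblast. Elf5 is known as a gatekeeper of this lineage whose promoter is DNA-methylated in embryonic stem cells, and Cdx2, Gata2, Gata3, Hand1 and Tfap2a are classical polycomb targets there. Several of these factors also act outside the placenta: Cdx2 in the posterior embryo and gut, Gata2 in blood, Gata3 and Tfap2a in surface ectoderm, and Hand1 in lateral mesoderm. BMP, which drives PGCLC induction, is a known inducer of the Gata, Hand1 and Tfap2a genes.

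Cdx2 and Elf5 were the 2 members whose libraries did not overlap between the groups, in opposite directions, so their promoters are shown. The sequences are the 250 bases before each annotated start, from RefSeq on GRCm38.p6, with each CG dinucleotide in capitals. Cdx2 has 1 annotated start in that table, on the minus strand, and Elf5 has 2, on the plus strand.
Cdx2 (chr5:147307250-147307499, minus strand): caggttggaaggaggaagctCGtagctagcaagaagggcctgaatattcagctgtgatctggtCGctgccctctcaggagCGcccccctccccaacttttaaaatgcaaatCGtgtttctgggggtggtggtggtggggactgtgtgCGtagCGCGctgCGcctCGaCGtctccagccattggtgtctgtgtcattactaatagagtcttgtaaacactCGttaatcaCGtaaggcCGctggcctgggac
Elf5 upstream start (chr2:103411848-103412097, plus strand): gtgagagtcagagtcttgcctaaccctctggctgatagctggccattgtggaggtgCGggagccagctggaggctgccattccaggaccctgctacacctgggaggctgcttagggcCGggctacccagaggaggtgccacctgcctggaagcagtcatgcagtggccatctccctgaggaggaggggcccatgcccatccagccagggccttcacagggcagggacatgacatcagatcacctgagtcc
Elf5 downstream start (chr2:103423818-103424067, plus strand): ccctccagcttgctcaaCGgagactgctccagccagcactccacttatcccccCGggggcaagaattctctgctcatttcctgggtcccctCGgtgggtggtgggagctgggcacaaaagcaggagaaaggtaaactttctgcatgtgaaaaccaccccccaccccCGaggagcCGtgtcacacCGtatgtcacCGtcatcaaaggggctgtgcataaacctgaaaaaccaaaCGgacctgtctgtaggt
The printed bases hold 13 CG dinucleotides for Cdx2, 2 for the upstream Elf5 start and 8 for the downstream one. In the full windows of 300 bases, which run 50 bases past the start, the counts were 18, 3 and 10, against a median of 7 over 32851 RefSeq windows. Windows were found for 8 of the 10 members, 12 in all. The most CG-rich were those of Gata2 (32 and 29) and Esx1 (24), followed by Gata3 (22), and the poorest besides Elf5 were those of Plac1 (3 and 6) and Plet1 (5). The TEAD motif GGAATG, searched on both strands, occurred in the upstream Elf5 window and in 1 of the 2 Gata2 windows, and in 14.7% of all windows. The GATA motif AGATAA, on both strands, occurred in 1 Plac1 window and in 11.2% of all windows. The AP-2 motif GCCNNNGGC, which reads the same on both strands, occurred once in the Cdx2 window, once in 1 Gata2 window and 3 times in the Gata3 window, and in 16.6% of all windows. These matches describe the letters only.

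Where 3 values are given for a group, they are replicates 1 to 3 in that order. Library totals ran from 27072150 to 49382146 counts. The first principal component, with 55.7% of the variance, ran from Ctrl replicate 1 (-62.6) to Ezh2 KO replicate 2 (76.9) with the others between -35.3 and 14.0. Log2 fold changes without these 2 libraries are therefore given for each member, Id2 and Grhl2. Ezh2 (ENSMUSG00000029687) was at 91.8, 78.1 and 95.3 CPM (read counts per 1000000 of the scaled library size) across Ctrl and at 40.8, 67.1 and 70.0 CPM across Ezh2 KO. Its log2 fold change, Ezh2 KO over Ctrl, was -0.58 ± 0.23 (SE; edgeR adjusted p = 0.976, unadjusted p = 0.0361). All Ezh2 KO values lay below all Ctrl values, as for 4.03% of all tested genes. By same-numbered libraries Ezh2 KO stood at 44.4%, 85.9% and 73.5% of Ctrl. Reads from exons outside the deleted part stay in this count, and how complete the deletion was in these cells was not tested. Of the 11 markers of germ cells and pluripotency set against the cell type label, Nanog was at 434 to 563 CPM, Tfap2c at 143 to 315 CPM, Dppa3 at 135 to 255 CPM and Prdm14 at 45.1 to 71.5 CPM. Germ cell genes at lower levels were Nanos3 (5.09 to 15.6 CPM), Prdm1 (3.08 to 7.24 CPM) and Itgb3 (1.85 to 5.03 CPM). Of the 11 markers, 8 had a negative log2 fold change, where 48.7% of all tested genes did, with a median of -0.29. By edgeR 0 of them were called, and the groups overlapped for all 11.

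None of the 10 members passed the test of the group difference. By edgeR's quasi-likelihood test, adjusted over all 16420 genes tested, 0 members were called, as were 0 genes in all (0% called). At an unadjusted p under 0.05 lay 2 members, Cdx2 lower and Elf5 higher, against 2.8% of all tested genes (459 of 16420, and 461 of 16420 in limma-voom). DESeq2 was run on every gene with a count. It had 737 of 26971 genes under 0.05, and 1270 of 26974 with the replicate number as a block. Limma-voom called 0 members and 0 genes (0%), DESeq2 0 members and 5 genes (0.0201% of 24879 with an adjusted p), and DESeq2 with the replicate number as a block 0 members and 50 genes (0.285% of 17560). Of the 10 log2 fold changes 4 were positive and 6 negative. Their median was -0.13, beside 0.01 over all tested genes, and they ran from -1.15 for Cdx2 to 1.10 for Elf5. The 3 Ctrl and 3 Ezh2 KO values did not overlap for 1 member above (Elf5) and 1 below (Cdx2), where 4.07% of tested genes lay above and 4.03% below. In bulk RNA, fewer cells that express a gene and less RNA per cell cannot be told apart.

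**Figure D1:**
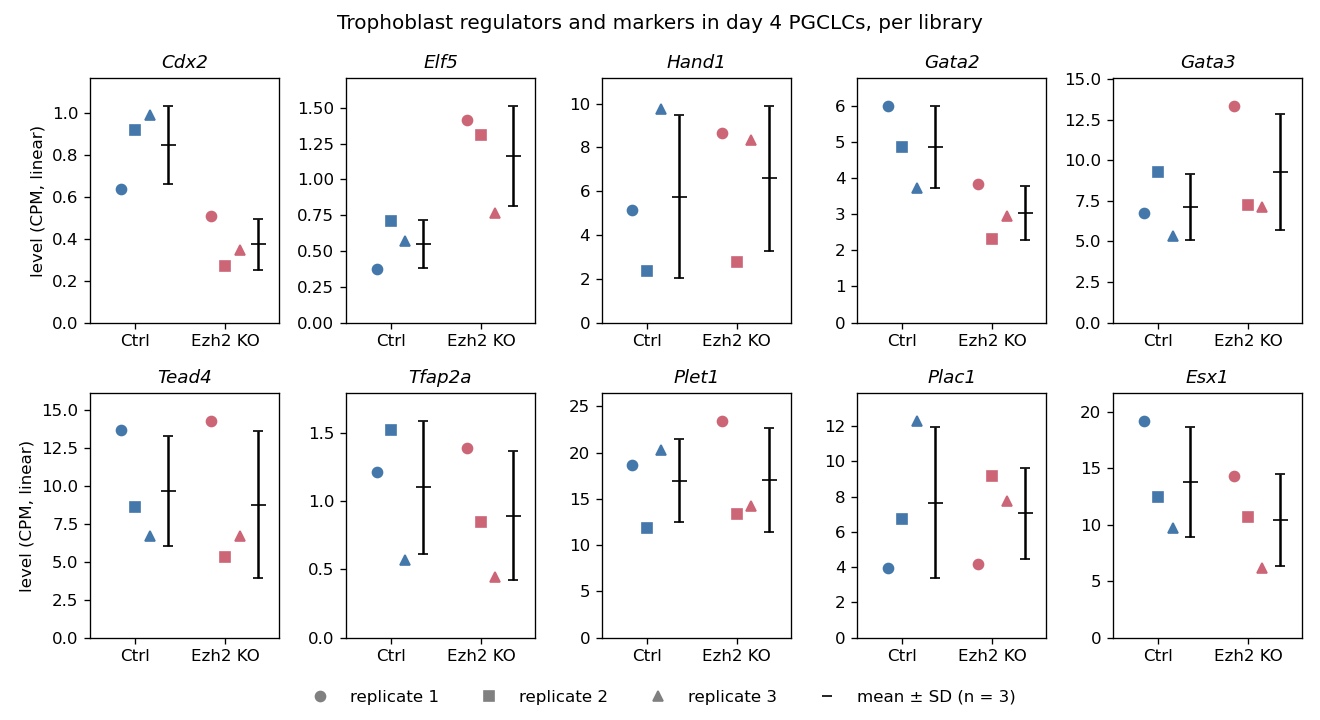
Level of each of the 10 genes in CPM (linear axis from 0) in the 3 Ctrl and 3 Ezh2 KO libraries; symbols give the replicate number and black bars the mean ± SD. Only Cdx2 (all Ezh2 KO values at or under 0.508, all Ctrl values at or over 0.639) and Elf5 (at or over 0.766 against at or under 0.710) do not overlap between the groups.

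Cdx2 (ENSMUSG00000029646), the caudal-type homeobox factor that specifies trophectoderm, was a rare transcript. It had 31, 26 and 28 counts across Ctrl and 19, 7 and 14 across Ezh2 KO. As CPM these are 0.639, 0.922 and 0.991 in Ctrl and 0.508, 0.270 and 0.346 in Ezh2 KO, so every Ezh2 KO library lay below every Ctrl library, with Ezh2 KO replicate 1 closest. As a group only the Ctrl libraries reached the minimum count of 10 needed for testing, as Ezh2 KO replicate 2 held 7. The means were 0.851 ± 0.186 and 0.375 ± 0.122 CPM (SD, n = 3 each). The log2 fold change was -1.15 ± 0.42 (SE; 95% interval -2.11 to -0.19, edgeR adjusted p = 0.976, unadjusted p = 0.0247). By exact permutation of the 6 CPM values (two-sided) p was 0.1, which is the lowest value this design can reach. Relative to the Ctrl library of the same number, Cdx2 stood at 79.5%, 29.3% and 34.9% across Ezh2 KO. Without Ctrl replicate 1 and Ezh2 KO replicate 2 the log2 fold change was -1.16.

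Elf5 (ENSMUSG00000027186), the ETS-domain factor of trophoblast stem cells, was as rare but lay on the other side. It had 18, 20 and 16 counts across Ctrl and 53, 34 and 31 across Ezh2 KO. As CPM these are 0.371, 0.710 and 0.566 in Ctrl and 1.42, 1.31 and 0.766 in Ezh2 KO. All 3 Ezh2 KO values were above all 3 Ctrl values, but Ezh2 KO replicate 3 was separated from Ctrl replicate 2 by a narrow margin. The means were 0.549 ± 0.170 and 1.17 ± 0.350 CPM (SD, n = 3 each), and the log2 fold change was 1.10 ± 0.43 (SE; 95% interval 0.12 to 2.08, edgeR adjusted p = 0.976, unadjusted p = 0.0327). The exact two-sided permutation p was 0.1, again the smallest possible. Each Ezh2 KO library exceeded the Ctrl library of its number, at 382%, 185% and 135%. Without Ctrl replicate 1 and Ezh2 KO replicate 2 the log2 fold change was 0.77.

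Of the pair of GATA factors, Gata2 (ENSMUSG00000015053), which acts in trophoblast giant cells and in blood, had a negative log2 fold change, and Gata3 (ENSMUSG00000015619), a trophectoderm factor parallel to Cdx2, a positive one. Gata2 was at 6.00, 4.86 and 3.71 CPM across Ctrl and at 3.82, 2.32 and 2.94 CPM across Ezh2 KO. The groups overlapped only through Ezh2 KO replicate 1 and Ctrl replicate 3, and each Ezh2 KO library was below the Ctrl library of its number (63.7%, 47.7% and 79.1%). The log2 fold change of Gata2 was -0.68 ± 0.32 (SE; 95% interval -1.42 to 0.05, edgeR adjusted p = 0.976), and -0.34 without Ctrl replicate 1 and Ezh2 KO replicate 2. Gata3 was at 6.76, 9.30 and 5.31 CPM across Ctrl and at 13.4, 7.26 and 7.11 CPM across Ezh2 KO. The high value was that of Ezh2 KO replicate 1, and the other Ezh2 KO libraries lay inside the Ctrl range. Its log2 fold change was 0.38 ± 0.35 (SE; 95% interval -0.42 to 1.18, edgeR adjusted p = 0.976), and 0.01 without Ezh2 KO replicate 1. Without Ctrl replicate 1 and Ezh2 KO replicate 2 it was 0.48. Exons of Gata3 overlap those of 2 other annotated genes, 1 on the opposite strand, but these held at most 1 count in any library. The 9 other members share no exonic bases with another gene of the table in GENCODE M21.

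Tead4 (ENSMUSG00000030353), the TEA-domain factor at the top of the trophectoderm cascade, did not part the groups. It was at 13.7, 8.62 and 6.72 CPM across Ctrl and at 14.3, 5.33 and 6.69 CPM across Ezh2 KO. Replicate 1 was the highest library of both groups. The groups overlapped only through Ezh2 KO replicate 1, which lay above all Ctrl libraries, while the other Ezh2 KO libraries lay below them. For Ezh2 KO replicate 3 this was a near tie with Ctrl replicate 3 (6.69 against 6.72 CPM). The log2 fold change was -0.14 ± 0.43 (SE; 95% interval -1.13 to 0.85), with 0.45 once Ctrl replicate 1 and Ezh2 KO replicate 2 were left out. Without Ezh2 KO replicate 1 alone it was -0.69. Tfap2a (ENSMUSG00000021359), an AP-2 factor shared by trophoblast and surface ectoderm, was at 1.22, 1.53 and 0.566 CPM across Ctrl and 1.39, 0.849 and 0.445 CPM across Ezh2 KO. These values rest on 59, 43 and 16 counts across Ctrl and 52, 22 and 18 across Ezh2 KO. Here replicate 3 was the lowest library of both groups, and the log2 fold change was -0.31 (95% interval -1.53 to 0.92), or -0.20 without the same 2 libraries.

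Hand1 (ENSMUSG00000037335), the basic helix-loop-helix factor of giant cells and of lateral mesoderm, was among the most variable members. It was at 5.15, 2.34 and 9.73 CPM across Ctrl and at 8.66, 2.78 and 8.35 CPM across Ezh2 KO. Replicate 2 was the lowest library of both groups, and its highest and lowest libraries differed 4.15-fold. The log2 fold change was 0.21 with a 95% interval of -1.12 to 1.53. With the replicate number as a block it was 0.26, with an interval of -0.34 to 0.86. Without Ctrl replicate 1 and Ezh2 KO replicate 2 it was 0.51.

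The placental genes did not part the groups either. Plet1 (ENSMUSG00000032068), a surface protein of the extraembryonic ectoderm, was at 18.7, 11.8 and 20.3 CPM across Ctrl and at 23.5, 13.4 and 14.3 CPM across Ezh2 KO. Both means were 17.0 CPM, with SDs of 4.50 and 5.60 (n = 3 each), and the 95% interval of the log2 fold change ran from -0.71 to 0.72. Plac1 (ENSMUSG00000061082), an X-linked gene of the placenta, was at 3.94, 6.71 and 12.3 CPM across Ctrl and at 4.20, 9.19 and 7.76 CPM across Ezh2 KO. Replicate 1 was its lowest library in both groups, opposite to Tead4, and its log2 fold change was -0.12 (95% interval -1.18 to 0.95). Esx1 (ENSMUSG00000023443), an X-linked homeobox gene of the labyrinth, was at 19.3, 12.5 and 9.69 CPM across Ctrl and at 14.3, 10.7 and 6.15 CPM across Ezh2 KO. Replicate 1 was the highest and replicate 3 the lowest library of both groups, and the Ezh2 KO libraries stood at 74.4%, 86.2% and 63.5% of their Ctrl counterparts by number. The groups still overlapped, and the log2 fold change of Esx1 was -0.41 ± 0.38 (SE; 95% interval -1.28 to 0.46, edgeR adjusted p = 0.976). Without Ctrl replicate 1 and Ezh2 KO replicate 2 the log2 fold changes were 0.23 for Plet1, -0.65 for Plac1 and -0.12 for Esx1.

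The labels do not pair the libraries, and the pairing by number was read from these same counts. On that reading 3 members (Cdx2, Gata2 and Esx1) were lower in every pair and 1 (Elf5) was higher in every pair. Over all tested genes 14.8% were lower and 17.9% higher in every pair. With the replicate block edgeR called 0 members and 0 genes (0%), and 3 members, Cdx2, Elf5 and Gata2, had an unadjusted p under 0.05, beside 9.1% of all genes (adjusted p = 0.492, 0.481 and 0.492). The interval of Gata2 then ran from -1.26 to -0.10, and that of Esx1 from -0.93 to 0.06.

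**Figure D2:**
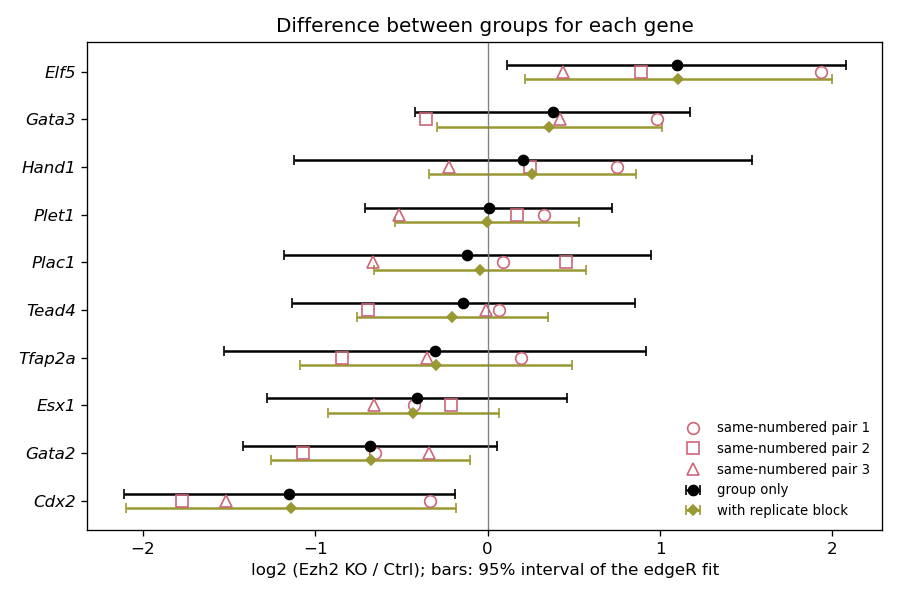
Log2 ratio of Ezh2 KO to Ctrl for each gene: black circles and bars give the edgeR estimate and its 95% interval, olive diamonds and bars the same with the replicate number as a block, and open symbols the 3 same-numbered pairs. The intervals of Cdx2 (-2.11 to -0.19) and Elf5 (0.12 to 2.08) lie on either side of 0, and before the block the other 8 cross it.

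Per kilobase of annotated exon, the members were spread over a wide range of low levels. Plet1 stood highest (median over the 6 libraries 8.46 CPM per kb, range 6.09 to 12.1), followed by Esx1 (5.84), Plac1 (5.18), Hand1 (3.38), Tead4 (2.13) and Gata3 (1.81). Below them came Gata2 (0.698), Cdx2 (0.254), Tfap2a (0.211) and Elf5 (0.126, range 0.0631 to 0.241). Neighbours in this order overlapped in their ranges over the 6 libraries except Gata3 (1.33 to 3.36) and Gata2 (0.429 to 1.11). On the same scale the germ cell paralog Tfap2c was at 38.9 to 85.6 CPM per kb and Nanog at 193 to 251. The exon lengths are those of GENCODE M21, not of the annotation that was counted.

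**Figure D3:**
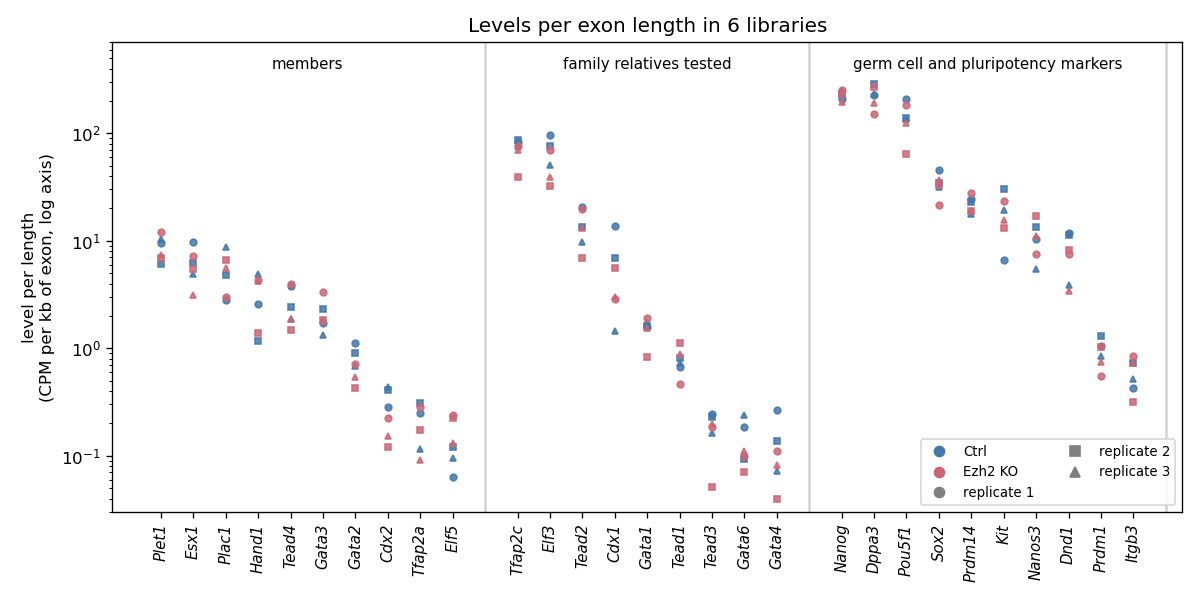
Level per exon length (CPM per kb, log axis) in each of the 6 libraries for the 10 members, the 9 tested relatives from the same gene families and 10 markers of germ cells and pluripotency; colours give the group and symbols the replicate. Elf5, Tfap2a and Cdx2 lie lowest among the members, between 0.0631 and 0.438, and Nanog lies between 193 and 251.

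Relatives in the same gene families lay on either side of the members. On the scale per length, all 6 values of Tfap2c, Elf3, Cdx1 and Tead2 lay above all 6 values of Tfap2a, Elf5, Cdx2 and Tead4, respectively. All 6 values of Tead1 (0.469 to 1.12 CPM per kb) and Tead3 (0.0518 to 0.243) lay below those of Tead4 (1.48 to 3.98). Those of Gata4 and Gata6 were at most 0.269 CPM per kb and lay below all values of Gata2 and Gata3, while Gata1 (0.824 to 1.92) overlapped both. These relatives, other than Tfap2c and Gata6, were chosen after their values were seen. Tfap2c, the AP-2 factor of both trophoblast and germ cells, was at 300 ± 20.1 CPM across Ctrl and 227 ± 73.0 CPM across Ezh2 KO. Elf3, an epithelial ETS factor, was at 212, 169 and 113 CPM across Ctrl and at 156, 71.7 and 86.8 CPM across Ezh2 KO. Its ranges overlapped, with a log2 fold change of -0.65 ± 0.33 (SE; edgeR adjusted p = 0.976). Cdx1 was at 24.1, 12.0 and 2.51 CPM across Ctrl and 4.97, 9.81 and 5.21 CPM across Ezh2 KO. Its groups overlapped, unlike those of Cdx2. The log2 fold change of Cdx1 was negative like that of Cdx2, at -0.96 ± 0.68 beside -1.15 ± 0.42 (SE), with a wider spread. Gata6, an endoderm factor, was at 1.13 ± 0.483 and 0.607 ± 0.130 CPM, and Tead2 at 70.1 ± 26.3 and 63.7 ± 30.9 CPM. Of the 15 relatives 9 were tested and 0 called. Of the 9, 8 had a negative log2 fold change, where 48.7% of all tested genes did, with a median of -0.53. The 6 others (Cdx4, Hand2, Gata5, Tfap2b, Tfap2d and Tfap2e) had at most 5 counts in any library.

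Other genes of the trophoblast lineage numbered 34, of which 26 were tested and 0 called by edgeR. Of these 26, 10 were positive and 16 negative, with a median of -0.07, and 1, Id2, had an unadjusted p under 0.05, beside 2.8% of all tested genes. Their groups did not overlap for 2 above (Eomes and Id2), beside 4.07% of all tested genes, and for 2 below (Sox21 and Flt1), beside 4.03%. Flt1 had 56, 18 and 14 counts across Ctrl and 18, 3 and 13 across Ezh2 KO. As a group only its Ctrl libraries reached the minimum count of 10 needed for testing. Id2, an inhibitor of helix-loop-helix factors that BMP induces and that marks early trophectoderm, was at 21.3, 30.8 and 22.4 CPM across Ctrl and at 48.0, 58.0 and 42.2 CPM across Ezh2 KO. All 3 Ezh2 KO libraries were well above all 3 Ctrl libraries. The log2 fold change of Id2 was 0.99 ± 0.22 (SE; 95% interval 0.48 to 1.51, edgeR adjusted p = 0.976), and 0.76 without Ctrl replicate 1 and Ezh2 KO replicate 2. DESeq2 with the replicate block called it (adjusted p = 0.00697), as 1 of its 50 calls. DESeq2 without the block did not (adjusted p = 0.0944), nor did edgeR with the block (adjusted p = 0.303).

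By role, the list of trophectoderm and stem cell genes had 4 of 12 positive and a median of -0.09. The co-activators of Tead4, Yap1 and Wwtr1, had log2 fold changes of 0.12 and -0.31. The 4 keratins of simple epithelia had a median of 0.10. Krt18, of the highest mean CPM in the list, was at 79.9, 56.3 and 208 CPM across Ctrl and 91.8, 125 and 176 CPM across Ezh2 KO, highest in replicate 3 of both groups, and Krt7 had a log2 fold change of 0.17. Of the 5 genes listed under spongiotrophoblast 3 were tested. Phlda2 made up most of the list's sum in every library, while the marker Tpbpa had at most 2 counts. Among them, Phlda2, an imprinted growth restrainer, was at 74.8 ± 27.2 and 91.6 ± 25.8 CPM, and Flt1, a VEGF receptor, at 0.763 ± 0.347 and 0.306 ± 0.183 CPM.

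Of the 8 labyrinth genes 6 were tested, with a median of -0.13. Gcm1, the switch to syncytiotrophoblast, was at 3.30 ± 0.594 and 3.08 ± 0.256 CPM, and the lactate transporter genes Slc16a1 and Slc16a3 at 129 ± 21.2 and 134 ± 16.8 CPM and at 65.8 ± 62.6 and 35.1 ± 53.0 CPM. Slc16a3 ranged from 2.90 to 134 CPM over the 6 libraries, with replicate 1 highest in both groups. The syncytiotrophoblast fusion genes Syna and Synb had 4 to 22 and 0 to 22 counts in a library, each at most 0.778 CPM, and were not tested. Among giant cell genes, the lactogen Prl3b1 and the cathepsin Ctsq had 0 counts in all 6 libraries, which allows up to 0.0618 to 0.116 CPM in a library (3 counts, counting error only). Prl3d1, Prl2c2 and the spongiotrophoblast marker Tpbpa had at most 4 counts in a library. The 1 giant cell gene tested was Bhlhe40, a gene of wide expression, at 10.3 ± 3.84 and 17.2 ± 8.25 CPM.

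**Figure D4:**
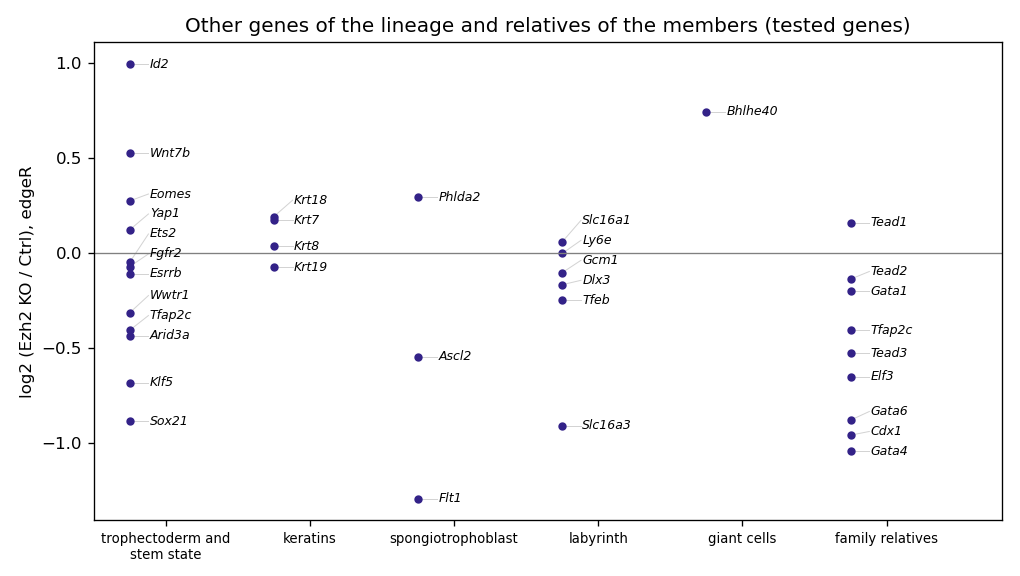
Log2 ratio of Ezh2 KO to Ctrl by edgeR for each tested gene of the trophoblast lineage outside the 10 members, by role, and for the tested relatives; each point is 1 gene and Tfap2c stands in 2 columns. Id2 (0.99) lies highest and Flt1 (-1.29) lowest, and 8 of the 9 relatives lie below 0.

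Other cells that use the same regulators were measured by their own markers. The 5 surface ectoderm genes summed to 27.3 to 61.5 CPM across Ctrl and 56.9 to 65.9 CPM across Ezh2 KO, mostly through Grhl3 (41.9 ± 16.9 and 49.7 ± 3.00 CPM), while Trp63, Krt5 and Krt14, which define that tissue, stayed under 1 CPM in every library. Grhl2, an epithelial factor of trophoblast and surface ectoderm, was at 4.31, 6.99 and 5.70 CPM across Ctrl and at 12.1, 8.76 and 7.98 CPM across Ezh2 KO. Those groups did not overlap, where 4.07% of all tested genes lay above without overlap. The log2 fold change of Grhl2 was 0.77 ± 0.29 (SE; edgeR adjusted p = 0.976), and 0.66 without Ctrl replicate 1 and Ezh2 KO replicate 2. The 7 genes of amnion and lateral mesoderm, to which Hand1 also belongs, summed to 1.86 to 3.64 CPM across Ctrl and 1.74 to 2.91 CPM across Ezh2 KO, with Foxf1 at 0 counts in all libraries. Of the list, Isl1 had the highest mean CPM (1.44 ± 0.561 and 1.14 ± 0.498 CPM), and Tbx20, at 0.442 ± 0.269 and 0.651 ± 0.172 CPM, had the smallest p.

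The 6 streak genes summed to 10.4 to 13.0 CPM across Ctrl and 12.2 to 14.6 CPM across Ezh2 KO. Nearly all of that was Eomes, a T-box factor of streak and trophoblast, at 10.3 ± 0.874 and 12.5 ± 1.41 CPM, and the other 5 stayed near or under 1 CPM. The 6 endoderm genes summed to 5.39 to 6.51 CPM and 4.17 to 7.11 CPM, led by Sox7 (2.14 ± 0.134 and 2.12 ± 0.733 CPM), and Sox17 was at 0.508 ± 0.115 and 0.152 ± 0.148 CPM. Among the 6 blood and endothelium genes, Pecam1, which germ cells also express, made up nearly the whole sum of 120 to 198 CPM across Ctrl and 117 to 199.6 CPM across Ezh2 KO. Runx1 was at 0.210 ± 0.141 and 0.521 ± 0.307 CPM. Foxd3, of the 3 neural crest genes and also a pluripotency gene, was at 2.64 ± 0.464 and 1.92 ± 0.278 CPM. Sox17 and Foxd3 were lower in Ezh2 KO without overlap between the groups, as were 4.03% of all tested genes. Sox17 had 31, 12 and 13 counts across Ctrl and 6, 0 and 12 across Ezh2 KO. As a group only its Ctrl libraries reached the minimum count of 10 needed for testing. No gene of these lists was called by edgeR, and the part of any of these cells in the levels of the members was not tested.

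Among the members themselves, the log2 levels that ran most alike over the 6 libraries were those of Tfap2a and Esx1 (Pearson's r = 0.83) and of Hand1 and Plet1 (0.77), and the most opposed were those of Tead4 and Plac1 (-0.91). Among all tested genes with a symbol, those closest to Cdx2 were Zbtb14 (r = 0.99), Rbmxl1 (0.99) and Gpr146 (0.99), and those closest to Plet1 were 4933416C03Rik (0.98), Hspa9 (0.98) and Gm12522 (0.98). With 6 libraries and 16420 genes such values arise easily, and 12 genes exceeded 0.95 for Cdx2 and 17 for Plet1. The points share their library and its depth, so these values describe the libraries.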

How the data were processed

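Per the labels' protocols, libraries of 3 Ctrl and 3 Ezh2 KO samples were made with a low-input kit. The file deposited by the authors holds raw read counts, 1 row per Ensembl gene and 1 column per library. Per the submitters' processing notes, the tools were CASAVA 1.8.4, Trimmomatic 0.33, TopHat2 2.0.11 and featureCounts, and the builds mm9 and NCBIM37. The sources used here do not give settings, strand or annotation version, so a gene and an antisense partner cannot be told apart.

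Symbols and exon lengths came from GENCODE M21 by gene ID (32919 of 37991 matched). Genes kept by filterByExpr (minimum count 10) numbered 16420. Counts were scaled by TMM and tested by edgeR 4.0.16 (quasi-likelihood, robust, group only, R 4.3.3), two-sided, with Benjamini-Hochberg adjustment over all tested genes and a threshold of 0.05. The fits were tested on simulated data with less spread than these libraries, no replicate effect, and changed genes of higher counts than Cdx2 and Elf5. That test therefore does not cover recovery of changes in genes as rare as these, or at the spread seen here. CPM use the TMM-scaled library size, and 1 count equals 0.0206 to 0.0386 CPM. Principal components used log2 CPM with a prior count of 2.

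Alternatives were DESeq2 1.42.0, limma-voom (limma 3.58.1), DESeq2 size factors, other filters and thresholds, left-out libraries and the replicate block. Deviations from the group means correlated at 0.59, 0.38 and 0.19 for the same-numbered pairs, each over 0.1, so the numbers were taken to pair the libraries, as a reading of the data, not of the labels. The differently numbered pair of Ctrl replicate 3 and Ezh2 KO replicate 2 correlated at 0.31, above the same-numbered pair 3. No 2 libraries of a group agreed within sampling noise (chi-square per degree of freedom 30.5 at least).

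The members and lists were chosen with earlier results of these data known. Named were all members, Ezh2 and, in each list, the most abundant gene and the one of smallest p. Also named were the 3 genes that run most like Cdx2 and Plet1, the most abundant member. Outside this rule, and after their values were seen, Elf3, Cdx1, Tead1, Tead2, Tead3, Gata1, Gata4, Gcm1, Sox21, Syna, Synb, Dppa3, Prdm14, Nanos3, Prdm1, Itgb3, Yap1, Wwtr1 and the genes at or near 0 were named.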

Additional observations from a re-analysis of the deposited data

How the results depend on the processing

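Over all alternatives run, 0 members were called, and the lowest adjusted p of a member was 0.481 (Elf5, edgeR with the replicate block). In 138 fits of a single member 17 reversed its direction, all of them for Plet1, Tead4, Hand1, Plac1 or Tfap2a. Cdx2, Elf5, Gata2, Gata3 and Esx1 kept theirs throughout, though the stricter filter removed Cdx2 and Elf5. The replicate block changed no call of a member. DESeq2 called 5 genes in all, and with the replicate block 50, of which 1 was among the other trophoblast genes (Id2, log2 fold change 0.99). Plet1 had a log2 fold change of -0.0019 with the size factors of DESeq2, -0.0052 in DESeq2, -0.0057 in limma-voom, -0.016 without a filter, -0.0029 with the replicate block and -0.015 in DESeq2 with the replicate block. Without both libraries at the ends of the first component Tead4 was at 0.45. Leaving out each library in turn gave ranges of -1.43 to -0.97 for Cdx2, 0.86 to 1.33 for Elf5, -0.30 to 0.16 for Plet1, -0.69 to 0.20 for Tead4, -0.17 to 0.80 for Hand1, -0.44 to 0.37 for Plac1 and -0.80 to 0.029 for Tfap2a. The members that did not overlap numbered 2 to 4 over the left-out libraries, where 7.54% to 13.7% of all tested genes lay above and 7.18% to 12.8% below. They were 4 without Ezh2 KO replicate 1, when Gata2 and Tead4 joined Cdx2 as lower (12.8% of all tested genes were lower without overlap there). They were 3 without Ctrl replicate 2 (Gata3 joined as higher, beside 8.55% of all genes) or Ctrl replicate 3 (Gata2 joined as lower, beside 10.3%). The cause was not tested. Depth limits Cdx2, Elf5 and Tfap2a most, at 7 to 59 counts a library.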
